A study of Mus musculus with 24 samples.

Results

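The genes described here are Gfap, Vim, Serpina3n, Aspg, Cd44, Osmr, S100a6, Lcn2, Cp and Stat3, which rise in astrocytes that react to injury, inflammation or plaque, or which carry the signal for that reaction. They were taken by symbol from the deposited count table, and all 10 of 10 were found among its 53647 gene identifiers and passed the filter on low counts that left 21280 genes for testing. Messenger RNA was sequenced from the brain cortex of 24 mice aged 7.5 months in 3 genotypes of 8 mice each. All of them were 5xFAD mice, a model that forms amyloid plaques and whose transgenes are driven by the neuronal Thy1 promoter. The 5xFAD group carried no further variant, the 5xFADM28L group (M28L below) was in addition homozygous for the M28L variant of phospholipase C-gamma-2 and the 5xFADP522R group (P522R below) for the P522R variant. No library came from a mouse without the 5xFAD transgenes, so every value is a level within a brain that already carries them and not a response to plaque. The titles mark 4 mice of each genotype with F and the other 4 with M, and the number of the animal in the title is used below to name the replicate.

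Astrocytes are the glial cells that buffer ions and transmitters around synapses and contact blood vessels. Next to amyloid plaques and after injury they enlarge, build up intermediate filaments of glial fibrillary acidic protein (Gfap) and vimentin (Vim) and secrete acute-phase proteins such as the protease inhibitor Serpina3n, the lipid-binding protein lipocalin 2 (Lcn2) and the copper-binding ferroxidase ceruloplasmin (Cp). Cytokines of the interleukin-6 family, such as oncostatin M, act through receptors that share the chain gp130; Osmr is the chain that binds oncostatin M beside gp130, and the transcription factor Stat3 carries the signal to genes such as Gfap. Phospholipase C-gamma-2 itself is made in the brain mainly by microglia, the resident immune cells, where it acts downstream of receptors such as Trem2. Gfap is largely an astrocyte gene in cortex. Vim, Cd44, S100a6, Osmr and Stat3 are also made by vessels, border tissue or immune cells, and Lcn2 is a classical neutrophil protein.

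The libraries held 79230161 to 115154197 counts each, and no 2 of them were copies. Xist, which is transcribed from the inactive X chromosome, lay between 170.2 and 419.8 CPM (read counts scaled to a common library size with TMM factors) in the 12 F libraries and at no more than 1.86 CPM in the 12 M libraries; it was looked at only as a check of the letter. Plcg2 was read in all 24 libraries and was higher in P522R than in 5xFAD by 1.04 on the log2 scale (SE 0.14, edgeR adjusted p = 5.55e-06) and lay at -0.11 in M28L (adjusted p = 0.859; with the Bc1 share as an added term, 0.88 with adjusted p = 0.0111 and -0.01 with adjusted p = 0.994); counts per gene do not show the amino acid change. Bc1, a short non-coding RNA of neurons, took a share of all counts that differed between the groups. Its median share was 5.26% in 5xFAD (3.61% to 10.4%), 3.82% in M28L (2.996% to 6.01%) and 9.09% in P522R (5.32% to 19.8%), and it was higher in F than in M libraries within each genotype (medians 6.59% and 4.39% in 5xFAD, 4.24% and 3.43% in M28L, 11.5% and 7.28% in P522R). It therefore moved with the same contrasts as most genes below, and the genotype comparisons of the 10 genes are given with the Bc1 share as an added term as well; the part of whatever sets that share in the results was not tested.

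The promoters of 4 of the genes are printed because their genes moved together between mice or between genotypes, and so that the letters read by Stat3 can be seen in place. Each is the RefSeq window on GRCm38.p6 from 250 bases before to 50 bases after the annotated start of the transcript, 5′ to 3′ on the gene's own strand. Capitals mark matches to TTCNNNGAA, the letters that STAT factors bind, and to TGANTCA, the letters of AP-1 sites; both motifs read alike on the 2 strands.
Gfap (chr11:102897151-102897450, minus strand): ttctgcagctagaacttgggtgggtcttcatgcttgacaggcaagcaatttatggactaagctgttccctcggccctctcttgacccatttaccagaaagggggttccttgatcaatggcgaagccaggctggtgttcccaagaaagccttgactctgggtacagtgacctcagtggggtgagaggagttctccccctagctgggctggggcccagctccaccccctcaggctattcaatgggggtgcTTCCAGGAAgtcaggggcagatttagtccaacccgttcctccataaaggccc
Serpina3n (chr12:104406458-104406757, plus strand): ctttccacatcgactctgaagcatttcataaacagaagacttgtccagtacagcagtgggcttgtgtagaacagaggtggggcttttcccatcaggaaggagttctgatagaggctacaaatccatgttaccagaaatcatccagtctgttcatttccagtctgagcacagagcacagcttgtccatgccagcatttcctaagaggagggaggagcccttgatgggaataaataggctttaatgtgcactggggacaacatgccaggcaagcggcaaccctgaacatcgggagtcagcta
Aspg (chr12:112106433-112106732, plus strand): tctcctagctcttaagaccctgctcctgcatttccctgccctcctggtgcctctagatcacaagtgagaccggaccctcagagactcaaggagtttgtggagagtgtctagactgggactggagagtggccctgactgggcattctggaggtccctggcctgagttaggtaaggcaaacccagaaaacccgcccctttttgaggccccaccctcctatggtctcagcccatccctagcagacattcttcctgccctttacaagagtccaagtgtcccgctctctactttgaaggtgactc
Osmr (chr15:6874264-6874563, minus strand): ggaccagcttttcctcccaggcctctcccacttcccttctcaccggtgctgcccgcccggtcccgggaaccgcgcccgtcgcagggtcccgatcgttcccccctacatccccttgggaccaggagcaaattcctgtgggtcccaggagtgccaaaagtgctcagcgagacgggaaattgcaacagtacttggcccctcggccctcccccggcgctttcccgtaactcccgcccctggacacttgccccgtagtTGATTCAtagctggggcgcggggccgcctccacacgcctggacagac
With the first transcribed base as position 1, the TTCNNNGAA match of Gfap ran from -2 to 7, across the start itself, and the TGANTCA match of Osmr from 4 to 10.

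All 10 genes had at least 1 RefSeq promoter window, 11 in all because Cp had 2, and these were set beside the 32851 windows of the same length in the table, with both strands searched. TTCNNNGAA stood in 8.3% of all windows and in that of Gfap alone among the 10 genes. TGANTCA stood in 7.81% of all windows and, besides Osmr, in a Cp window (-177 to -171). TTGCNNAA, a core of C/EBP sites, stood in 10.8% of all windows and in those of Lcn2 and Cp. The NF-kB site stood in 8.46% of all windows and 3 times in that of Vim, with a pair of matches overlapping, and the CArG box of serum response factor, found in 1.63% of all windows, had no match among the 10 genes. A match describes the letters in these windows and says nothing about binding in these brains.

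In 7 of the 10 genes the mean level over both letters was highest in P522R, intermediate in 5xFAD and lowest in M28L. The exceptions were Cd44, Lcn2 and Cp. The means of each letter alone kept this order for Gfap, Serpina3n, Osmr and S100a6. It did not hold in M libraries for Aspg, whose mean there was 3.45 CPM in P522R and 3.59 in 5xFAD. Nor did it hold there for Vim (31.8 in 5xFAD and 33.4 in M28L) or Stat3 (55.6 in P522R, 58.4 in M28L and 60.1 in 5xFAD). Compared with 5xFAD, M28L had 3 of the 10 genes lower, Serpina3n, Aspg and Gfap, where 0.71% of all genes tested were called lower, and 0 higher, where 0.503% of all genes were. None of the 10 was higher at an unadjusted p under 0.05 by edgeR or by DESeq2 either. In P522R 5 of the 10 were higher than in 5xFAD, Vim, Gfap, Serpina3n, Osmr and S100a6, against 15.0% of all genes, and 0 were lower, against 14.8%; by edgeR and by DESeq2 0 were lower at an unadjusted p under 0.05. Set against M28L, P522R had 6 of 10 higher, Serpina3n, Gfap, Osmr, Aspg, Vim and S100a6, where 16.5% of all genes were higher, and 0 lower, where 18.3% were; again 0 were lower at an unadjusted p under 0.05 by either tool. The median log2 difference of the 10 genes was -0.24, 0.38 and 0.62 in the 3 comparisons, and that of all genes 0.01, -0.04 and -0.03. The 3 comparisons share libraries and are not independent of each other.

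**Figure D1:**
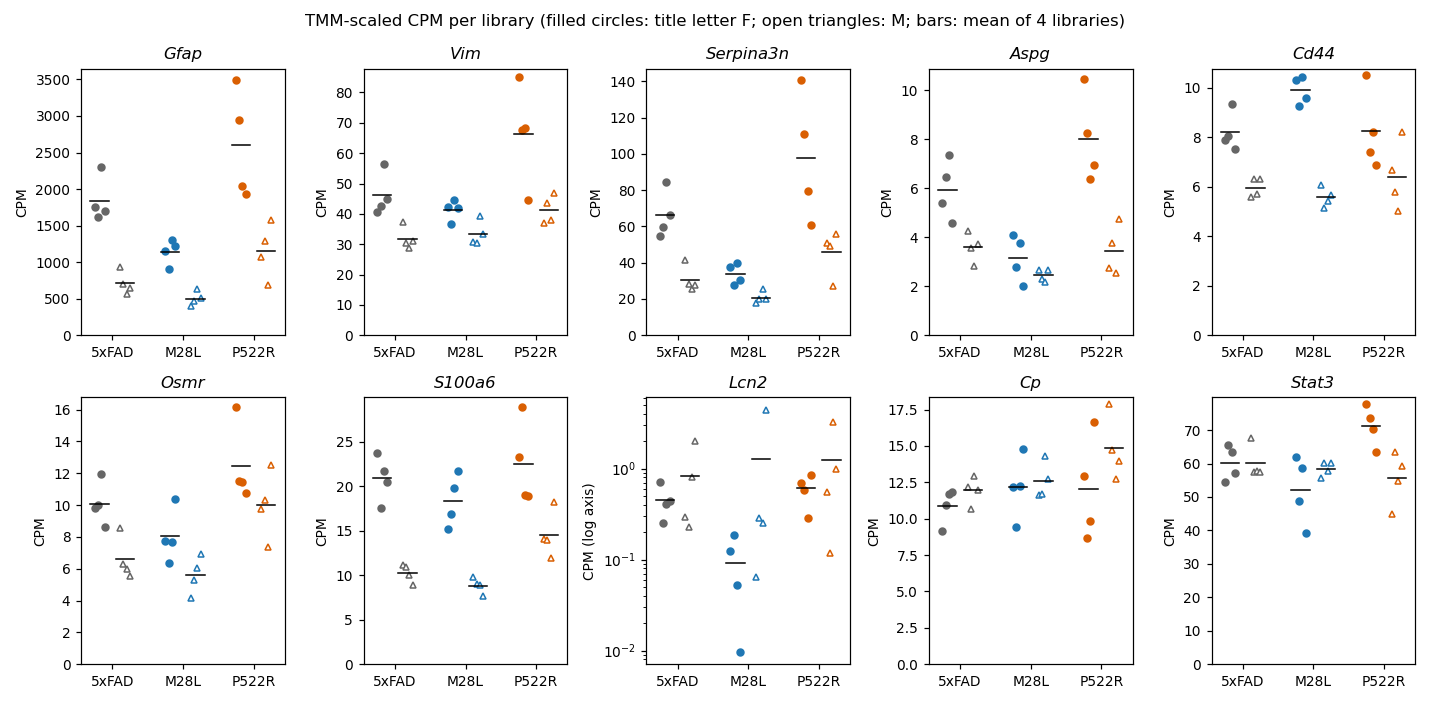
Level of each of the 10 genes in every library, in TMM-scaled CPM on the y axis (log axis for Lcn2), by genotype on the x axis; filled circles are F libraries, open triangles M libraries and bars the mean of 4 libraries. Gfap F libraries lie at 903 to 1310 CPM in M28L, 1622 to 2299 in 5xFAD and 1933 to 3494 in P522R. Cp overlaps between all genotypes in each letter. Stat3 F libraries lie at 39.2 to 62.1 CPM in M28L and 63.4 to 77.8 in P522R, and its M libraries overlap.

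With the Bc1 share as a term, 0 of the 10 genes were called by edgeR in any of the 3 genotype comparisons. Few genes of any kind were: 0.338% of all genes tested for M28L against 5xFAD, 4.18% for P522R against 5xFAD and 0.094% for P522R against M28L. At an unadjusted p under 0.05 that fit still had Serpina3n, Aspg and Gfap lower in M28L than in 5xFAD, Vim and Cp higher in P522R than in 5xFAD, and Serpina3n, Gfap, Aspg, Osmr and Vim higher in P522R than in M28L. Without the 5 libraries whose Bc1 share exceeded 10% (5xFAD replicate 1180 and P522R replicates 8, 24, 31 and 106) the same 3 genes were lower in M28L than in 5xFAD, where 1.39% of all genes were called, and the same 6 were higher in P522R than in M28L, where 13.3% were. Only Vim was then called higher in P522R than in 5xFAD, where 11.5% of all genes were called; Gfap lay at 0.39 (adjusted p = 0.131), Serpina3n at 0.34 (adjusted p = 0.218), Osmr at 0.37 (adjusted p = 0.116) and S100a6 at 0.26 (adjusted p = 0.136). The fit without libraries over 10% Bc1 lacked 3 of the 4 F libraries of P522R and 1 of its 4 M libraries. Of 5xFAD it lacked 1 of the 4 F libraries. P522R was thus small and mostly of letter M in that fit, and the part of this in the lost calls was not tested. In bulk cortex fewer cells of a type and less RNA per cell cannot be told apart.

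**Figure D2:**
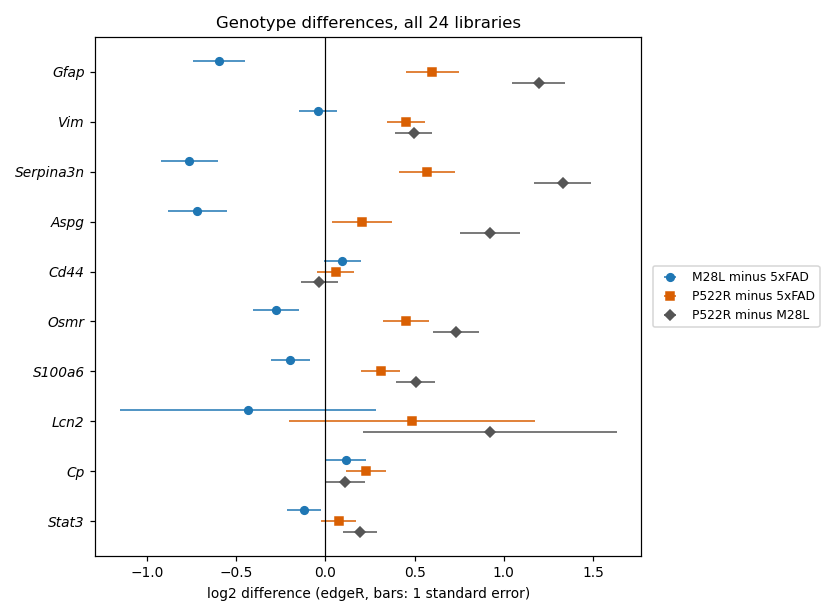
Log2 difference between genotypes for each of the 10 genes in the fit over all 24 libraries; points are estimates and bars 1 standard error, with M28L minus 5xFAD as circles, P522R minus 5xFAD as squares and P522R minus M28L as diamonds. Gfap, Serpina3n and Aspg lie below 0 in M28L (-0.60, -0.76 and -0.72), and Lcn2 has the widest bars.

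Per kilobase of exon, Gfap was by far the most abundant of the 10 genes, at a mean of 315 CPM per kb over all 24 libraries. Serpina3n followed at 23.9, S100a6 at 11.6, Vim at 9.15 and Stat3 at 6.26 CPM per kb. Cp (1.30), Aspg (1.26), Cd44 (1.09) and Osmr (0.73) were low, and Lcn2 was lowest at 0.29 CPM per kb.

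Gfap (ENSMUSG00000020932.15, chr11:102778162-102791738 on the minus strand in the unnamed build of the deposited table) encodes the main filament protein of astrocytes. Its 4 F libraries of 5xFAD read 1757, 1622, 2299 and 1694 CPM, and the 4 M libraries 929, 706, 559 and 650 CPM. In M28L the F libraries read 1148, 903, 1310 and 1220 CPM and the M libraries 394, 465.6, 634 and 512 CPM. In P522R the F libraries read 3494, 2942, 2045 and 1933 CPM and the M libraries 1071, 1292, 687 and 1577 CPM. Every P522R library thus lay above every M28L library of its own letter, and every F library of M28L lay below every F library of 5xFAD, while the M libraries of these 2 genotypes overlapped. P522R overlapped 5xFAD in both letters, and the lowest P522R library, M replicate 27, lay within the range of the 5xFAD M libraries.

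Averaged over the letters, Gfap stood at 1880 ± 947 CPM in P522R, 1277 ± 646 in 5xFAD and 823 ± 368 in M28L (SD, n = 8 each), and most of each SD was the gap between F and M. That gap also enters the counts of libraries set against these means. Within 5xFAD the F libraries (1622 to 2299 CPM) lay above the mean and the M libraries (559 to 929) under it. In P522R Gfap was 2.29-fold higher than in M28L (log2 1.20, SE 0.15, edgeR adjusted p = 1.61e-06), with 7 of 8 libraries above the M28L mean. Compared with 5xFAD it rose 1.51-fold in P522R (log2 0.60, SE 0.15, adjusted p = 0.00278), with 6 of 8 libraries above the 5xFAD mean. In M28L it fell 1.51-fold from 5xFAD (log2 -0.60, SE 0.15, adjusted p = 0.0365), and 7 of its 8 libraries were under the 5xFAD mean. Dropping any one of 10 libraries, namely 5xFAD replicate 1177, 1180, 1181, 1190 or 1248 or M28L replicate 9, 11, 12, 14 or 15, ended this last call, although the difference itself stayed between -0.66 and -0.53 over all 24 such fits (adjusted p = 0.0171 to 0.102). With the Bc1 share as a term the difference of P522R from M28L was 0.78 (SE 0.27, adjusted p = 0.337), that from 5xFAD 0.35 (adjusted p = 0.363) and that of M28L from 5xFAD -0.44 (adjusted p = 0.398).

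Vim (ENSMUSG00000026728.10, chr2:13578738-13587637, plus strand) encodes vimentin, the filament partner of Gfap, which cells of vessels and meninges also make. It ranged from 28.6 to 56.4 CPM in 5xFAD (median 38.9), from 30.3 to 44.5 in M28L (median 37.9) and from 36.9 to 85.1 in P522R (median 45.6). The high end came from F libraries of P522R, 3 of which (85.1, 67.6 and 68.2 CPM) lay above every library of the other genotypes, while the fourth read 44.4 CPM. Vim rose 1.37-fold in P522R over 5xFAD (log2 0.45, SE 0.10, edgeR adjusted p = 0.00176) and 1.41-fold over M28L (log2 0.49, SE 0.11, adjusted p = 0.000621). Unlike Gfap, it lay close to 0 in M28L against 5xFAD, at -0.04, with a 95% interval from -0.26 to 0.18 (adjusted p = 0.935). The Bc1 term left the difference of P522R from 5xFAD at 0.41 and that from M28L at 0.42 and ended both calls (adjusted p = 0.119 and 0.584).

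Markers of meningeal fibroblasts, which make Vim and S100a6, differed between the genotypes as well. Their summed level was 43.1 to 66.0 CPM in 5xFAD, 68.5 to 100.3 in M28L and 81.4 to 102.6 in P522R, with all 8 markers read in each genotype. Against 5xFAD, 6 of 8 were higher in P522R, where 15.0% of all genes were. In M28L, where Vim did not pass the test, 2 of 8 were higher, Col1a1 and Col1a2, against 0.503% of all genes. Of the 7 mural cell markers 3 were higher in P522R than in 5xFAD (Acta2, Tagln and Pdgfrb), and of the 7 endothelial markers 2 (Ly6c1 and Slc2a1). In the fit with the Bc1 term 5 of the fibroblast markers and 0 of the mural and endothelial markers were called in P522R against 5xFAD, where 4.18% of all genes were. The part of these cells in the Vim and S100a6 values was not tested.

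One library stood apart in the markers of the choroid plexus, the tissue that makes cerebrospinal fluid. The 8 markers summed to 275.1 CPM in M28L M replicate 17 and to 4.93 to 20.5 CPM in the other 23 libraries. That library was also the highest of the 4 M28L M libraries for Gfap, Vim, Serpina3n and Cp. Without it the differences of M28L from 5xFAD were -0.84 for Serpina3n (edgeR adjusted p = 0.006), -0.66 for Gfap (adjusted p = 0.0231) and -0.72 for Aspg (adjusted p = 0.0424), and Vim (-0.10) and Cp (0.10) were again not called.

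Among 6 other filament proteins and linkers, P522R had 2 higher than 5xFAD, against 15.0% of all genes, and 2 lower, against 14.8%. M28L had 0 called in either direction by edgeR, where 0.503% of all genes were higher and 0.71% lower. Desmin (Des), the filament protein of muscle and pericytes, rose from 1.63 ± 0.42 to 2.81 ± 0.79 CPM (log2 0.79, SE 0.16, adjusted p = 0.000518), and lamin A (Lmna), of the nuclear envelope, by 0.44 (SE 0.11, adjusted p = 0.00451). Synemin (Synm), which links Gfap and vimentin filaments to other parts of the cell, stood at 33.9 ± 5.05 CPM in 5xFAD and 26.7 ± 1.95 in P522R (log2 -0.33, SE 0.07, adjusted p = 0.000866), and Sync was the other that fell. The called filament genes thus went both ways in P522R, as the called genes of the whole table did. The Bc1 term left 1 of the 6 called there, Des (0.92, adjusted p = 0.0138), where 4.18% of all genes were called.

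Serpina3n (ENSMUSG00000021091.9, chr12:104372988-104380588, plus strand) encodes a secreted inhibitor of serine proteases, and differed more between M28L and either other genotype than any other gene of the 10 that was called. In 5xFAD the F libraries read 54.7, 59.6, 84.5 and 66.6 CPM and the M libraries 41.6, 28.1, 25.6 and 27.5 CPM. In M28L the F libraries read 37.7, 27.8, 39.7 and 30.4 CPM and the M libraries 17.6, 19.97, 25.6 and 19.998 CPM. In P522R the F libraries read 140.9, 111, 79.3 and 60.5 CPM and the M libraries 50.9, 49.1, 27.1 and 55.7 CPM. Within each letter M28L lay below both other genotypes without overlap, though its highest M library and the lowest of 5xFAD, both 25.6 CPM when rounded, were nearly equal. P522R and 5xFAD overlapped in both letters.

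Serpina3n was 1.70-fold lower in M28L than in 5xFAD (log2 -0.76, SE 0.16, edgeR adjusted p = 0.011), and the call held with each of the 24 libraries left out (adjusted p = 0.00306 to 0.0336). All 8 libraries lay under the 5xFAD mean over both letters (48.5 CPM), as did the M libraries of 5xFAD itself (25.6 to 41.6). Serpina3n was 1.48-fold higher in P522R than in 5xFAD (log2 0.57, SE 0.16, adjusted p = 0.00746). In P522R 7 of 8 libraries lay above that mean, as did the F libraries of 5xFAD (54.7 to 84.5). Between P522R and M28L the difference was 2.52-fold (log2 1.33, SE 0.16, adjusted p = 1.12e-06). With the Bc1 term these became -0.69 (SE 0.19, adjusted p = 0.152), 0.45 (adjusted p = 0.28) and 1.13 (SE 0.30, adjusted p = 0.159). Each estimate moved toward 0, and the standard errors given here grew. Serpina3n has close copies next to it on chromosome 12, so the authors' counting may have divided or discarded reads that match more than 1 of them. Of 10 such paralogs only 2 passed the filter on low counts, Serpina3g and Serpina3i, both at group means of 0.11 CPM or less, and neither was called between genotypes by edgeR.

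Aspg (ENSMUSG00000037686.7, chr12:112073113-112093993, plus strand) encodes an asparaginase that marks reactive astrocytes. It ranged from 2.85 to 7.36 CPM in 5xFAD (median 4.42), from 1.997 to 4.10 in M28L (median 2.68) and from 2.56 to 10.5 in P522R (median 5.56). M28L lay below 5xFAD without overlap in both letters, and P522R lay above M28L without overlap in the F libraries only. Aspg was 1.65-fold lower in M28L than in 5xFAD (log2 -0.72, SE 0.17, edgeR adjusted p = 0.026). In M28L 8 of 8 libraries lay under the 5xFAD mean over both letters (4.77 CPM), as did the M libraries of 5xFAD itself (2.85 to 4.25). Leaving out 5xFAD replicates 1177, 1181 or 1190 or M28L replicate 14 ended the call (adjusted p = 0.0149 to 0.0681 over 24 fits). Aspg was 1.90-fold higher in P522R than in M28L (log2 0.92, SE 0.17, adjusted p = 0.000133). Against 5xFAD P522R lay at 0.20 (SE 0.17, adjusted p = 0.38), so P522R and 5xFAD were not told apart for this gene. Without the libraries over 10% Bc1, which include 3 of the 4 F libraries of P522R, the difference lay at -0.19 (adjusted p = 0.569). The Bc1 term took the M28L difference to -0.64 (adjusted p = 0.239) and that of P522R from M28L to 0.71 (adjusted p = 0.562).

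**Figure D3:**
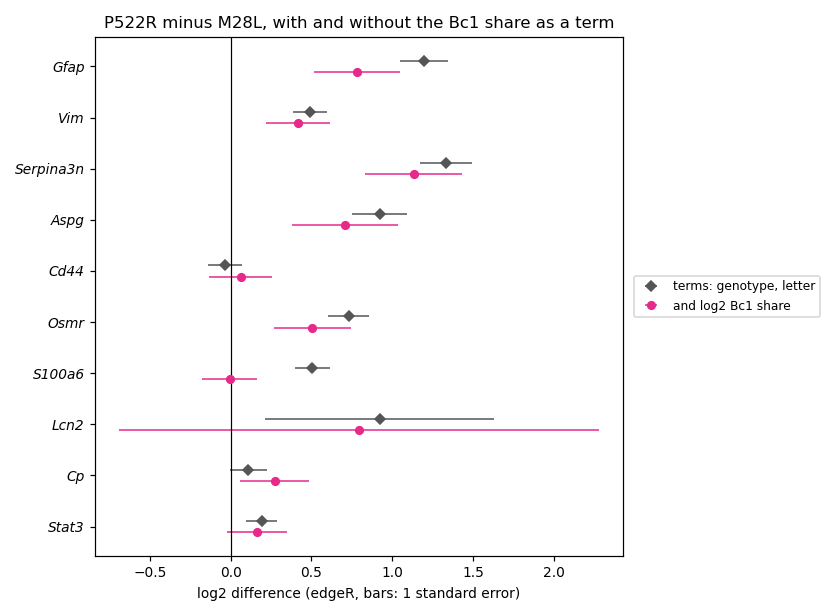
Log2 difference P522R minus M28L for each of the 10 genes, with genotype and letter as terms (diamonds) and with the log2 Bc1 share added (circles); bars are 1 standard error. Serpina3n moves from 1.33 to 1.13 and Gfap from 1.20 to 0.78, S100a6 moves from 0.51 to -0.01, and the bars widen for the genes shown.

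Osmr (ENSMUSG00000022146.13, chr15:6843058-6904450, minus strand) encodes the receptor chain for oncostatin M. Its lowest, median and highest libraries read 5.52, 8.61 and 12.0 CPM in 5xFAD, 4.18, 6.66 and 10.4 in M28L, and 7.34, 11.1 and 16.2 in P522R. P522R lay above M28L without overlap in each letter, and overlapped 5xFAD in both. Osmr rose 1.37-fold in P522R over 5xFAD (log2 0.45, SE 0.13, edgeR adjusted p = 0.0082) and 1.66-fold over M28L (log2 0.73, SE 0.13, adjusted p = 8.38e-05). Of the P522R libraries 8 of 8 lay above the M28L mean over both letters. M28L lay at -0.28 against 5xFAD (SE 0.13, adjusted p = 0.398), a difference that limma-voom with sample weights called and edgeR and DESeq2 did not. With the Bc1 term the differences of P522R were 0.32 from 5xFAD (adjusted p = 0.348) and 0.51 from M28L (adjusted p = 0.572).

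Stat3 (ENSMUSG00000004040.17, chr11:100775924-100830366, minus strand), the transcription factor downstream of that receptor, was not called in any genotype comparison. It lay between 54.5 and 67.8 CPM in 5xFAD (median 57.7), between 39.2 and 62.1 in M28L (median 58.3) and between 45.0 and 77.8 in P522R (median 63.5). The difference was 0.07 for P522R from 5xFAD (SE 0.10, adjusted p = 0.612), -0.12 for M28L from 5xFAD (SE 0.10, adjusted p = 0.722) and 0.19 for P522R from M28L (SE 0.10, adjusted p = 0.126), where the 95% interval ran from -0.01 to 0.39. Leaving out P522R replicate 21, its lowest library, brought that last difference to the threshold (adjusted p = 0.021), as did offsets for GC content and length (0.23, adjusted p = 0.00561). Transcript counts do not measure the phosphorylation by which Stat3 is switched on.

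Of 7 ligands of the gp130 receptors, 0 were called in M28L or in P522R against 5xFAD by edgeR, where 258 and 6344 of all 21280 genes were. All 7 had means under 1 CPM in each genotype. Oncostatin M itself (Osm) stood at 0.39 ± 0.15 CPM in 5xFAD, 0.20 ± 0.10 in M28L and 0.41 ± 0.33 in P522R, and was higher in P522R than in M28L (log2 1.09, SE 0.41, adjusted p = 0.0368), while Clcf1 was lower (log2 -0.64, SE 0.23, adjusted p = 0.0316). The Osm libraries of P522R (0.06 to 1.05 CPM) overlapped those of M28L (0.08 to 0.37). In F alone, in M alone and without the libraries over 10% Bc1, 0 of the 7 ligands were called between these genotypes. Of 5 receptor genes P522R had Cntfr, the binding chain for ciliary neurotrophic factor, 0.83 higher than 5xFAD (SE 0.10, adjusted p = 1.55e-06), from 70.0 ± 9.83 to 124 ± 13.9 CPM. Lifr, the receptor chain for leukaemia inhibitory factor, fell by 0.29 (SE 0.08, adjusted p = 0.00694), and gp130 itself (Il6st) lay at -0.07 (adjusted p = 0.471). The kinases Jak1 and Jak2 were lower in P522R than in M28L by edgeR, at -0.20 (SE 0.06, adjusted p = 0.0111) and -0.42 (SE 0.10, adjusted p = 0.00154). Of 6 feedback genes and targets of Stat3, P522R had 3 higher than 5xFAD, where 15.0% of all genes were. They were Pim1 (0.39, SE 0.11), Pias3 (0.42, SE 0.13) and Bcl3 (0.67, SE 0.25), with adjusted p = 0.0082, 0.0127 and 0.044. With the Bc1 term Cntfr alone among these ligands, receptors, kinases and targets was called in P522R against 5xFAD (adjusted p = 0.00255), and none against M28L. That fit called 4.18% and 0.094% of all genes.

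Cd44 (ENSMUSG00000005087.18, chr2:102641486-102732010, minus strand) encodes the cell-surface receptor for hyaluronan and osteopontin. It ranged from 5.58 to 9.35 CPM in 5xFAD (median 6.92), from 5.13 to 10.5 in M28L (median 7.67) and from 5.00 to 10.5 in P522R (median 7.16), and the genotypes overlapped. No genotype comparison called it; P522R lay 0.06 from 5xFAD (adjusted p = 0.718), and M28L 0.09 from 5xFAD (adjusted p = 0.823). Between P522R and M28L the difference over both letters was -0.04, with a 95% interval from -0.25 to 0.18. A change as large as that of Gfap lay outside this range. The ratio of the P522R mean to the M28L mean was 0.83 in F and 1.15 in M libraries. In F, M28L read 9.28 to 10.5 CPM and 5xFAD 7.53 to 9.35. Neither letter alone called Cd44 in a genotype comparison. Of 7 ligand and hyaluronan genes, M28L had the synthase Has2 higher than 5xFAD (log2 1.68, SE 0.41, edgeR adjusted p = 0.0334), at 0.76 ± 0.52 against 0.21 ± 0.11 CPM, and Cd74, the antigen presentation chaperone, lower (log2 -1.76, SE 0.28, adjusted p = 0.00066). Of all genes 0.503% were higher in that comparison and 0.71% lower. With the Bc1 term, where 0.338% of all genes were called, Cd74 was still called (adjusted p = 0.0198) and Has2 was not (1.31, adjusted p = 0.389).

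S100a6 (ENSMUSG00000001025.9, chr3:90520189-90531488, plus strand) encodes a small calcium-binding protein. It ranged from 8.91 to 23.8 CPM in 5xFAD (median 14.3), from 7.68 to 21.7 in M28L (median 12.5) and from 11.9 to 28.9 in P522R (median 18.5), with a wide gap between the letters inside each genotype. In the M libraries alone P522R, at 11.9 to 18.2 CPM, lay above 5xFAD (8.91 to 11.1) and M28L (7.68 to 9.76) without overlap. S100a6 rose 1.42-fold in P522R over M28L (log2 0.51, SE 0.11, edgeR adjusted p = 0.000711) and 1.24-fold over 5xFAD (log2 0.31, SE 0.11, adjusted p = 0.0319). Dropping any one of 6 libraries, 5xFAD replicate 1189, 1269 or 1270 or P522R replicate 23, 24 or 31, ended the second call (adjusted p = 0.00828 to 0.0945 over 24 fits). With the Bc1 term both differences went to 0, at -0.01 from M28L (adjusted p = 0.998) and below 0.01 in size from 5xFAD (adjusted p = 0.999). M28L lay at -0.20 against 5xFAD (SE 0.11, adjusted p = 0.527).

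Other S100 genes moved like S100a6: 6 of 7 were higher in P522R than in 5xFAD and 6 of 7 higher than in M28L. Of all genes 15.0% and 16.5% were higher in these comparisons. S100b, a calcium-binding protein of astrocytes and oligodendrocytes, rose from 157 ± 39.0 to 202 ± 66.0 CPM (log2 0.37, SE 0.10, adjusted p = 0.00516). The Bc1 term left 1 of the 7 called against 5xFAD and 0 against M28L, where 4.18% and 0.094% of all genes were called.

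Lcn2 (ENSMUSG00000026822.15, chr2:32274645-32278264, minus strand) encodes lipocalin 2, an iron-siderophore carrier of the acute phase. It was near the floor of detection, at 0.23, 0.42 and 2.02 CPM (lowest, median and highest) in 5xFAD, 0.01, 0.15 and 4.45 in M28L, and 0.12, 0.64 and 3.29 in P522R. The lowest of these, M28L F replicate 28, rests on 1 read. A single M library held the highest value in each genotype and set much of its spread, with SDs of 0.60, 1.53 and 0.997 CPM around means of 0.65, 0.68 and 0.92 CPM (n = 8 each). No genotype difference was called over all libraries (log2 -0.44 for M28L and 0.49 for P522R from 5xFAD, 0.92 for P522R from M28L, with SEs of 0.69 to 0.72). Within the F libraries M28L, at 0.12, 0.19, 0.05 and 0.01 CPM, lay below 5xFAD (0.25 to 0.72) and P522R (0.28 to 0.86) without overlap, and in those libraries P522R was higher than M28L by 2.77 (SE 0.57, edgeR adjusted p = 0.00343). Leaving out M28L replicate 9, the library at 4.45 CPM, also brought the difference between P522R and M28L past the threshold (adjusted p = 0.000942).

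Neutrophil markers were close to 0 in these cortices: 0 of 8 passed the filter on low counts, and their summed level was 0.10 to 0.24 CPM in 5xFAD, 0.10 to 1.76 in M28L and 0.17 to 0.83 in P522R. The Lcn2-high libraries M28L replicate 9 and P522R replicate 27 read 0.75 and 0.42 CPM of them. The third Lcn2-high library, 5xFAD replicate 1270, read 0.20 CPM, within the range of its group, and the highest sums were in M28L replicate 17 and P522R replicate 23, whose Lcn2 levels were 0.26 and 0.12 CPM.

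Cp (ENSMUSG00000003617.17, chr3:20011218-20063309, plus strand) encodes ceruloplasmin, which oxidises iron for export and in astrocytes is tethered to the cell surface. Its levels overlapped between the genotypes, at 9.16 to 12.96 CPM in 5xFAD (median 11.8), 9.41 to 14.8 in M28L (median 12.2) and 8.70 to 17.9 in P522R (median 13.4). No genotype comparison called it, with 0.23 for P522R from 5xFAD (SE 0.11, adjusted p = 0.128) and 0.12 for M28L from 5xFAD (SE 0.11, adjusted p = 0.778). Leaving out P522R replicate 24 or using offsets for GC content and length brought the first of these past the threshold. Among 8 iron and copper genes, P522R had transferrin (Trf) 0.72 above 5xFAD (SE 0.11, edgeR adjusted p = 3.02e-05) and the ferritin heavy chain Fth1 0.47 above (SE 0.11, adjusted p = 0.00185), while the copper pump Atp7b was lower. Of all genes 15.0% were higher in that comparison and 14.8% lower. Of the 8 iron and copper genes, Trf alone was still called with the Bc1 term (0.53, adjusted p = 0.048), where 4.18% of all genes were.

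Most of the 10 genes also differed between the title letters. F libraries had 7 of 10 genes higher than M libraries, Gfap, S100a6, Serpina3n, Cd44, Vim, Aspg and Osmr, where 16.4% of all genes were called higher in F, and 1, Lcn2, lower, where 17.4% were. The median log2 difference of the 10 genes was 0.53 and that of all genes 0.00. Gfap was 2.37-fold higher in F (log2 1.25, SE 0.12, edgeR adjusted p = 6.67e-08), and all 12 F libraries lay above the M mean. F and M libraries did not overlap for Gfap in any genotype, and the ratio of their means was 2.59 in 5xFAD, 2.28 in M28L and 2.25 in P522R. S100a6 was 1.87-fold higher in F (log2 0.91, SE 0.09, adjusted p = 8.42e-08) and Serpina3n 1.96-fold (log2 0.97, SE 0.13, adjusted p = 3.58e-06), and neither overlapped between the letters within any genotype.

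Cd44, which no genotype comparison called, was 1.47-fold higher in F (log2 0.55, SE 0.08, adjusted p = 1.78e-05), with 12 of 12 F libraries above the M mean. The gap was widest in M28L, where F libraries read 9.28 to 10.5 CPM and M libraries 5.13 to 6.06. Vim (log2 0.51, SE 0.09, adjusted p = 5.33e-05), Aspg (0.77, SE 0.14, adjusted p = 9.4e-05) and Osmr (0.48, SE 0.10, adjusted p = 0.000703) were higher in F too. Lcn2 was lower in F by edgeR (log2 -1.73, SE 0.60, adjusted p = 0.0254), but the F and M libraries overlapped in every genotype, and the call was lost without 5xFAD replicate 1270, M28L replicate 9 or P522R replicate 27. Stat3 (0.06, adjusted p = 0.569) and Cp (-0.16, adjusted p = 0.179) did not pass the test. With the Bc1 share as a term 6 of the 7 higher genes were still called, where 6.68% of all genes were, Gfap at 1.06 (SE 0.15, adjusted p = 0.000227) among them, and Osmr (0.38, adjusted p = 0.103) and Lcn2 were not.

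**Figure D4:**
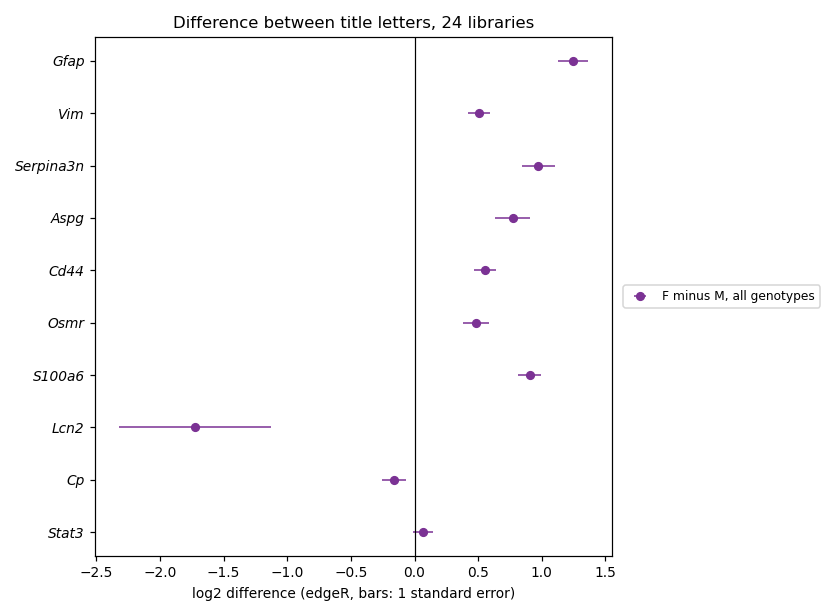
Log2 difference between F and M libraries for each of the 10 genes in the fit over all 24 libraries and 3 genotypes; points are estimates and bars 1 standard error. Gfap (1.25), Serpina3n (0.97) and S100a6 (0.91) lie farthest above 0, and Lcn2 (-1.73) is the one gene well below 0, with the widest bar.

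Taken apart by letter, P522R was higher than M28L in both letters for Gfap (log2 1.26 in F and 1.23 in M, edgeR adjusted p = 0.000856 and 0.000728), Serpina3n (1.61 and 1.16), Osmr (0.70 and 0.85) and Vim (0.76 and 0.33), with 4 libraries a group; 28.9% of all genes were called in F and 24.3% in M. Aspg was called in F (1.42, adjusted p = 0.000921) and lay at 0.50 in M (adjusted p = 0.0614), and Stat3 was called in F (0.52, adjusted p = 0.0102) and lay at -0.05 in M (adjusted p = 0.764). S100a6 was called in M (0.73, adjusted p = 0.000582) and lay at 0.37 in F (adjusted p = 0.0871). The test of the difference between letters called none of the 10 genes in this comparison, although it called 1164 genes of 21280. Its smallest adjusted p was that of Stat3 (0.52, adjusted p = 0.0612), followed by Aspg (0.86, adjusted p = 0.0766), and 4 of the 10 genes, with Cd44 and S100a6, had an unadjusted p under 0.05. For P522R against 5xFAD it called 0 genes (2874 at an unadjusted p under 0.05, Stat3 the one gene of the 10 among them), and for M28L against 5xFAD 6 genes, none of them among the 10.

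**Figure D5:**
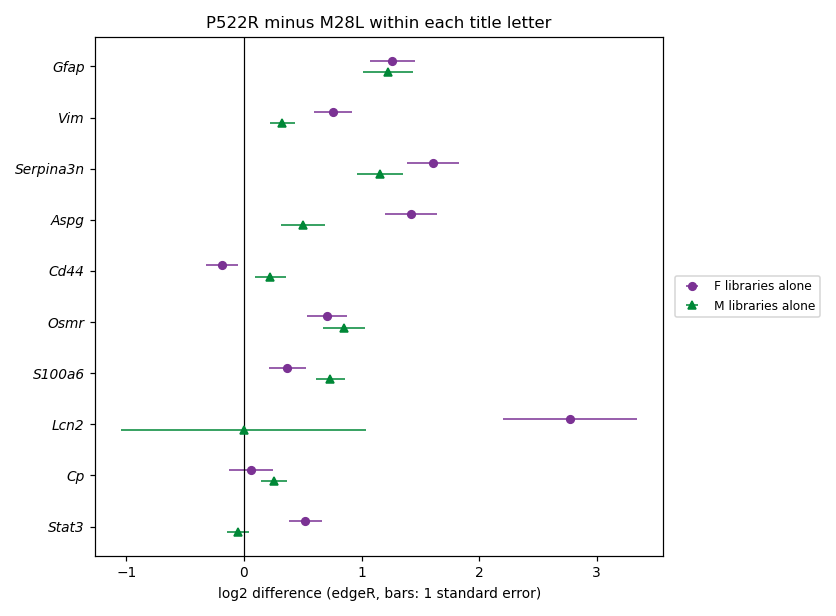
Log2 difference P522R minus M28L for each of the 10 genes in F libraries alone (circles) and M libraries alone (triangles), 4 libraries per group; bars are 1 standard error. Gfap lies at 1.26 and 1.23, nearly the same in both, while Lcn2 (2.77 and 0.00) and Aspg (1.42 and 0.50) lie apart.

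Against 5xFAD, the P522R libraries of either letter alone had Gfap higher (0.59 in F and 0.71 in M, edgeR adjusted p = 0.0457 and 0.0248) and Vim higher (0.61 and 0.38, adjusted p = 0.0216 and 0.0189), where 13.6% of all genes were called in F and 21.9% in M. Serpina3n lay at 0.65 in F (adjusted p = 0.0531) and was called at 0.58 in M (adjusted p = 0.0454). Osmr, S100a6 and Cp were called in M only (0.60, 0.50 and 0.31), without a called difference between the letters. M28L against 5xFAD called none of the 10 genes in either letter alone, against 0.474% of all genes in F and 0.0235% in M; Serpina3n lay at -0.96 in F (adjusted p = 0.0645) and -0.58 in M (adjusted p = 0.428), and Gfap at -0.68 and -0.52.

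Lists of other genes ascribed to reactive astrocytes were counted beside the 10. They were chosen with earlier results of these data known and by the literature's names for them, and several of their genes are made by microglia and vessels as well. Cd9 is counted again with the plaque-associated microglia below, Clcf1 also with the gp130 ligands and S100a10 also with the S100 genes. Of 14 genes of disease-associated astrocytes, P522R had 8 higher than 5xFAD, against 15.0% of all genes, and 0 lower, against 14.8%. Their median log2 difference was 0.35. The metallothioneins Mt2 and Mt1, which bind zinc and copper, rose by 1.04 (SE 0.10, edgeR adjusted p = 1.29e-07) and 0.69 (SE 0.09, adjusted p = 4.23e-06), and the lipid carrier Apoe by 0.50 (SE 0.08, adjusted p = 7.73e-05). The lysosomal and exosomal protein Cd63 rose by 0.51 (SE 0.10, adjusted p = 0.000414). In M28L 2 of the 14 fell, the lysosomal protease Ctsd (log2 -0.58, SE 0.14, adjusted p = 0.0334) and the tetraspanin Cd9 (-0.42, SE 0.11, adjusted p = 0.045), where 0.71% of all genes fell. Between P522R and M28L 13 of 14 were higher, where 16.5% of all genes were. Complement C4b was higher by 1.48 (SE 0.21, adjusted p = 6.91e-06), at 300 ± 164 against 106 ± 46.1 CPM. The Bc1 term left 2 of the 14 called in P522R against 5xFAD, where 4.18% of all genes were called. It left 0 in M28L against 5xFAD and in P522R against M28L, where 0.338% and 0.094% were.

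Of 5 pan-reactive genes outside the 10, only the small heat shock protein Hspb1 was called between genotypes over all libraries. It rose from 2.55 ± 0.43 CPM in 5xFAD to 7.04 ± 1.90 in P522R (log2 1.48, SE 0.19, adjusted p = 3.25e-06), a difference that the Bc1 term left in place (adjusted p = 0.00855). In F libraries alone 1 of the 5 was called in M28L against 5xFAD, where 0.474% of all genes were. Timp1 there read 1.07 to 2.34 CPM in M28L and 0.56 to 1.06 in 5xFAD. In M libraries its ranges overlapped, at 0.19 to 0.31 and 0.21 to 0.46 CPM. The 11 genes of the A1-type list went both ways in P522R against 5xFAD, with 4 higher and 2 lower, where 15.0% of all genes were higher and 14.8% lower. In M28L 3 of these 11 fell, where 0.71% of all genes did. They were the class I histocompatibility genes H2-D1 (-0.59, SE 0.11, adjusted p = 0.00555) and H2-T23 (-0.42, SE 0.10, adjusted p = 0.0229) and the immunoproteasome subunit Psmb8 (-0.57, SE 0.11, adjusted p = 0.00811). Of 11 tested genes of the A2-type list P522R had 5 higher than 5xFAD, led by the sphingosine kinase Sphk1 (0.80, SE 0.14, adjusted p = 7.51e-05) and the tetraspanin-like Tm4sf1 (0.72, SE 0.13, adjusted p = 0.000124). M28L had 1 lower, the lipopolysaccharide co-receptor Cd14 (-0.87, SE 0.12, adjusted p = 0.000165), a gene of microglia. The fit with the Bc1 term called 3 of the A1-type and 2 of the A2-type genes in P522R against 5xFAD, and in M28L 0 and 1. It called 4.18% of all genes in the first comparison and 0.338% in the second.

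Of 17 markers of homeostatic astrocytes, astrocytes at rest, 0 were called in M28L against 5xFAD by edgeR, where 258 of 21280 genes were. In P522R 6 were higher and 1 lower, against 15.0% and 14.8% of all genes. The sodium pump subunit Atp1b2 rose from 586 ± 78.3 to 1106 ± 124.5 CPM (log2 0.92, SE 0.09, adjusted p = 1.91e-07) and the folate enzyme Aldh1l1 by 0.77 (SE 0.12, adjusted p = 3.77e-05), while the glutamate transporter Slc1a2 fell by 0.44 (SE 0.07, adjusted p = 8.1e-05). The Bc1 term left 2 of the 17 called, Atp1b2 (0.94, adjusted p = 0.000311) among them, and not Aldh1l1 (adjusted p = 0.0542) or Slc1a2 (adjusted p = 0.0999). Between the letters 2 of the 17 were higher in F and 5 lower, against 16.4% and 17.4% of all genes. Slc1a2 (-0.51, SE 0.06, adjusted p = 1.08e-06) and the gap junction protein Gja1 (-0.28, SE 0.05, adjusted p = 6.64e-05) were among the lower. The median of the 17 was 0.03 in M28L, 0.05 in P522R against 5xFAD and -0.10 in F against M.

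Of 12 markers of plaque-associated microglia, 10 were lower in M28L than in 5xFAD, where 0.71% of all genes were. The integrin Itgax lay at -1.62 on the log2 scale (SE 0.16, edgeR adjusted p = 4.82e-07). In P522R 12 of 12 were higher than in M28L and in F 12 of 12 higher than in M, against 16.5% and 16.4% of all genes. Against 5xFAD, where 5 of the 10 astrocyte genes were higher in P522R, 1 of the 12 was higher (Gpnmb) and 1 lower (Lpl). Of all genes 15.0% were higher there and 14.8% lower. With the Bc1 term 6 of the 12 were called in M28L against 5xFAD, 2 in P522R against M28L, 0 in P522R against 5xFAD and 10 between the letters. Their summed level had a median of 679.6 CPM in F and 327 in M libraries of 5xFAD, 387 and 207 in M28L, and 696 and 420 in P522R, with none of the 12 at 0 in any genotype. The part of these cells in the astrocyte values was not tested.

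Within the groups, mice that were high in Gfap were also high in Serpina3n. After the mean of each genotype and letter was taken from log2(CPM + 0.1), Spearman's rho between the 2 genes over the 24 libraries was 0.897 (Pearson's r 0.918, and 0.898 without the 2 libraries farthest from the median of Gfap), the third highest among 14632 genes with a mean of at least 1 CPM. These values are descriptions over libraries that share depth, Bc1 share and cell makeup. The genes most like Gfap by rho were Ptpn6 (0.901), Ctsz (0.901), Serpina3n, Irf8 (0.891) and Ucp2 (0.887), and those most like Serpina3n were Ucp2 (0.918), Renbp (0.903), Gfap, Msn (0.893) and Hcls1 (0.892). Ptpn6, Irf8 and Hcls1 are known from microglia and other cells of the blood lineage. Osmr (rho 0.850, in place 10) and Vim (0.817, in place 26) followed Gfap closely within groups. Aspg (0.618), S100a6 (0.548), Stat3 (0.543) and Cd44 (0.380) followed less closely, and Cp (0.241) and Lcn2 (-0.265) hardly at all.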

How the data were processed

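Per the labels' protocols, RNA was extracted with chloroform and a Purelink column and made into libraries by KAPA mRNA HyperPrep chemistry. STAR 2.7.2b and featureCounts are the tools that the submitters' processing notes name; the version of the latter, the build and the strand setting are not given in the sources used here. What the authors deposited is a table of whole-number read counts per gene, without normalization. A list of gene names, matched by Ensembl identifier, gave symbols to 52093 of 53647 gene identifiers (97.1%). Only 2.84% of genes have the same start and end in GENCODE M21, so coordinates are the table's own.

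A single edgeR 4.0.16 fit in R 4.3.3 (quasi-likelihood test after TMM scaling and filterByExpr by genotype) took all 24 libraries, with genotype and title letter as terms, over 21280 genes. Calls are at a Benjamini-Hochberg adjusted p under 0.05 over all genes tested. Levels in CPM use the TMM library sizes, and 95% intervals use the t distribution with 20 residual degrees of freedom. The interaction of the terms was fitted separately. The procedure was tested on simulated data. Groups come from the genotype label, and each library was taken as 1 mouse; of 276 library pairs 0 were identical, with a smallest chi-square of 7.68 per degree of freedom.

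The genes and lists were chosen with earlier results of these data known. The text names the 10 genes, Plcg2, Bc1, up to 4 genes per list and comparison by smallest p, and the 5 genes most like Gfap and Serpina3n; Xist, Sync, Atp7b, Il6st and genes that complete a count of 5 or fewer were named after their values were seen. Alternatives were DESeq2 1.42.0, limma-voom (limma 3.58.1), RLE and upper-quartile factors, other filters, GC and length offsets, other terms, each letter alone and leaving out each library; the fit without libraries over 10% Bc1 and most alternatives for the letter were chosen after seeing the data. Without the strand setting, reads of antisense genes cannot be told apart.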

Additional observations from a re-analysis of the deposited data

Results flagged for a closer look

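Lcn2 was the one gene of the 10 with libraries past Dixon's 95% limit within the 8 libraries of their genotype. Among its 8 libraries of 5xFAD, replicate 1270 read 2.02 CPM, with the next highest at 0.81. In M28L replicate 9 read 4.45 CPM, with the next at 0.29, and in P522R replicate 27 read 3.29 CPM, with the next at 0.98. Each was an M library and each gap passed Dixon's 95% limit for 8 values. In all 30 groups of 8 libraries were tested this way (10 genes in 3 genotypes), of which chance alone would pass about 1 in 20. For the other 9 genes no library passed that limit. Each group of 8 held both letters, so a gap between F and M widened its range and could hide a library far from others of its letter. In M libraries of 5xFAD, replicate 1177 read 67.8 CPM of Stat3 and the rest 57.3 to 57.9. For Serpina3n it read 41.6 CPM and the rest 25.6 to 28.1. The limit was not tested within a letter.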

How the results depend on the processing

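Of 1466 refits of single differences of the 10 genes, 1361 kept direction and side of the threshold, 64 lost the call, 12 gained one and 29 changed sign; of 7234 for named genes of the lists, 6633 kept both, 597 lost the call and 4 changed sign. Of the 1466, 671 were of differences not called over all libraries, and 24 refits of each difference left out a single library. All 7234 were of differences that were called, so none of them could gain a call. Much of this agreement was thus set by the choice of refits. Of differences called over all libraries, the sign changes came with the Bc1 term alone: S100a6 in P522R against 5xFAD (-0.00053) and M28L (-0.0056), and, against M28L, Clcf1 (0.090), Gad1 (0.093), Gad2 (0.11) and Mog (-0.054). The other 27 were in differences of the 10 genes that were not called, and none was called after the change. For M28L against 5xFAD these were Vim with voom (0.028), in M (0.052) and without 5xFAD replicate 1190 (0.0094, with -0.097 to 0.0094 over the libraries left out in turn), Cd44 with the block (-0.11) and in M (-0.12), Lcn2 without the letter (0.061) and in M (0.55), and S100a6 with the Bc1 term (0.0051). For P522R against 5xFAD they were Aspg in M (-0.058), with GC and length offsets (-0.019) and without libraries over 10% Bc1 (-0.19), Cd44 with voom (-0.011), without those libraries (-0.010) and without P522R replicate 31 (-0.021, with -0.021 to 0.13 over the libraries left out in turn), Lcn2 with voom (-0.032) and the block (-0.28), and Stat3 in M (-0.11) and without those libraries (-0.066). For P522R against M28L they were Cd44 with the block (0.31), the Bc1 term (0.062), offsets (0.16), in M (0.22) and without P522R replicate 8 (0.042) or 24 (0.031; -0.11 to 0.042 over the libraries left out in turn), and Lcn2 (-0.0032) and Stat3 (-0.050) in M; between the letters it was Cp with offsets (0.066). The cause was not tested. Genes called in M28L against 5xFAD numbered 258, and 540 with DESeq2, 4456 with voom, 49 without the letter, 101 with the title prefix as a replicate block, 72 with the Bc1 term, 707 with the 2 genotypes alone, 102 in F, 5 in M and 600 with GC and length offsets; of the 10 genes 3 were called, 5 with voom, 2 with the block (without Aspg) and 0 without the letter, with the Bc1 term, in F or in M. Leaving out 1 library gave 157 to 308 genes, with 157, 158, 160 and 163 without 5xFAD replicates 1190, 1180, 1248 and 1181, and 1 to 3 of the 10, with 1 without 5xFAD replicate 1177, 1181 or 1190 or M28L replicate 14. For P522R against 5xFAD the 6344 became 936 with the block, 889 with the Bc1 term, 2927 in F and 2563 without libraries over 10% Bc1, and the 5 of 10 became 1 without the letter, 3 with the block, 0 with the Bc1 term, 2 in F and 1 without those libraries; leaving out 1 library gave 5383 to 7489 genes and 4 to 5 of the 10. For P522R against M28L the 7405 became 1259 with the block, 20 with the Bc1 term and 2959 without libraries over 10% Bc1, and the 6 of 10 became 0 with the Bc1 term; leaving out 1 library gave 6443 to 8402 and 6 to 7. The 7197 genes between letters became 1421 with the Bc1 term, and 6559 to 7985 with 1 library left out (7 to 8 of the 10). The labels do not say what the prefix marks, and of 9 pairs of libraries that share one across genotypes 2 had deviations from their group means correlated above 0.1 over genes (r -0.11 to 0.21). Lcn2 fell under the filter at a mean of 1 CPM and has no value there; 1 read of depth is worth about 0.01 CPM, which limits Lcn2 and the scarcest list genes.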
